A study of Mus musculus with 8 samples.

Results

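The enzymes described here are 9 enzymes or enzyme subunits of the tricarboxylic acid (TCA) cycle and its cytosolic side reactions, Cs, Idh1, Idh2, Idh3a, Ogdh, Dlst, Fh1, Mdh1 and Mdh2. They were taken by gene symbol from the table of normalized counts, in which they make up 9 of 52459 rows. All 9 passed the filter on low values, a mean of at least 10 normalized counts over the libraries.

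The data are RNA sequencing of regulatory T (Treg) cells, with 2 libraries in each of 4 groups and 8 in all. WT cells were CD4+CD25hi cells without the YFPcre reporter, and cells labelled DKO were CD4+CD25hi YFPcre+ cells whose genotype joins the Stim1 fl/fl and Stim2 fl/fl alleles with Foxp3-YFPcre, and which lack both sensors of the calcium store in Treg cells. Both came from spleen and lymph nodes of healthy female heterozygous Stim1/2Foxp3 mice on C57BL/6, so that WT and DKO Treg cells had developed in the same kind of animal and both carry the floxed alleles. Several mice were pooled for each sample, and their age is not given in the sources used here. Cre was expressed from the Foxp3 locus, so the genotypes also differ in whether Cre and YFP are expressed. Cells were analysed unstimulated or after 16 h with 1 µg/ml plate-bound anti-CD3/CD28. The read files of unstimulated libraries name sequencing lane 4 and those of stimulated libraries lane 1, so stimulation and lane cannot be told apart, whereas both genotypes lie within each lane. Nothing in the labels says whether the 2 libraries of a group came from separate pools of mice, so p-values measure the spread between these libraries, which may be technical.

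The TCA cycle runs in the mitochondrial matrix, where it oxidizes acetyl groups to carbon dioxide and passes electrons to the respiratory chain as NADH and reduced ubiquinone. Citrate synthase joins acetyl-CoA to oxaloacetate, isocitrate dehydrogenase and the 2-oxoglutarate dehydrogenase complex release carbon dioxide, and succinate dehydrogenase, fumarase and malate dehydrogenase regenerate oxaloacetate. T cells raise glycolysis when they are activated, and Treg cells are known to rely on mitochondrial oxidation more than effector T cells do. Calcium entry through the channels that STIM1 and STIM2 open is known to regulate metabolic genes of T cells.

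Bases upstream of the RefSeq start are shown for 3 enzymes that were called in a comparison below, Fh1, Mdh1 and Mdh2, for Cs, and for Ogdh, whose libraries overlapped between all neighbouring groups. Each is the 250 bases 5′ of the start, on the gene's strand and on GRCm38.p6. Capitals mark matches to a CCAAT box (CCAAT) and a GC box (GGGCGG), read on both strands. The windows lie at chr1:175625636-175625885 (minus strand) for Fh1, chr11:21571935-21572184 (minus strand) for Mdh1, chr5:135778399-135778648 (plus strand) for Mdh2, chr10:128337477-128337726 (plus strand) for Cs and chr11:6291347-6291596 (plus strand) for the first of the listed Ogdh starts.
Fh1: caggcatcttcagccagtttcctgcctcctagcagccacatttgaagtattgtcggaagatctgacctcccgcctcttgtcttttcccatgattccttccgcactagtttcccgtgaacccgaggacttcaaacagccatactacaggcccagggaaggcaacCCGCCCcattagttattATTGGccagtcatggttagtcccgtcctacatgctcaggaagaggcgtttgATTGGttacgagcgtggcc
Mdh1: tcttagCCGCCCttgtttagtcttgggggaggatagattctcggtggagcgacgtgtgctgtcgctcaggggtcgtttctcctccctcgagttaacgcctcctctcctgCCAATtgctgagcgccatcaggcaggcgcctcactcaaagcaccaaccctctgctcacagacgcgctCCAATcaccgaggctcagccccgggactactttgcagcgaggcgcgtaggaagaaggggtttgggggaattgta
Mdh2: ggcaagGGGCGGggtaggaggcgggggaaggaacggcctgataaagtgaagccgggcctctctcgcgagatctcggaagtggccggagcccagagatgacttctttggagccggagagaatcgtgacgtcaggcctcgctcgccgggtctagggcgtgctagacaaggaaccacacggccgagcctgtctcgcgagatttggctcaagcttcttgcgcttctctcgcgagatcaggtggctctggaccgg
Cs: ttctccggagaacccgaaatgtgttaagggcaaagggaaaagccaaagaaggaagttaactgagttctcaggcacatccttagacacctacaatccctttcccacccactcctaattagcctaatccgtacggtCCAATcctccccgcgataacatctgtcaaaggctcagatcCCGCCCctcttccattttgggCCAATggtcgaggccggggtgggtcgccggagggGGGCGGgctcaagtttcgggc
Ogdh: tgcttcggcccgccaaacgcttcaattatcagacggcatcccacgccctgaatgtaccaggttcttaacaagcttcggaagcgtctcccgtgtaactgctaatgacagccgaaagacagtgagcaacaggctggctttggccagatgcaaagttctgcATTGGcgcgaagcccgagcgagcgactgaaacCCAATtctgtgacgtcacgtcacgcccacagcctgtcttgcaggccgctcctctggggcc

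The RefSeq tables used here held 14 promoter windows for 8 of the 9 enzymes. Several of them belong to starts of Ogdh and overlap, so the same CCAAT box or E-box is counted in several windows. A GC box occurred in 10 of the 14 windows, which belong to 8 of the 8 genes, and in 32.7% of all 32851 promoter windows of that length. A CCAAT box occurred in 9 of the 14 windows, of 6 genes, and in 33.8% of all windows. The E-box CACGTG, the letters that MYC and related factors bind, was in 3 of the 14 windows, all of Ogdh, and in 6.02% of all windows. The consensus motif of NRF1, the ETS motif CCGGAAGT and the YY1 motif AANATGGCG were in 0 of the 14 windows and in 0.782%, 2.88% and 1.120% of all windows. No listed motif overlapped another in the 5 windows shown. The GC box of Fh1 starts 87 bases before the start and its CCAAT boxes start 70 and 19 bases before it. In Mdh1 the GC box starts 244 bases and the CCAAT boxes 141 and 74 bases before the start. Mdh2 has a single GC box, 244 bases before the start, and no CCAAT box in this window. These matches describe letters only.

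On GRCm38.p6, Cs lies on chromosome 10 from 128337727 to 128362482, Fh1 on chromosome 1 from 175601378 to 175625635, Mdh1 on chromosome 11 from 21556692 to 21571934 and Mdh2 on chromosome 5 from 135778649 to 135790386. Idh1 lies on chromosome 1 from 65158616 to 65186479, Idh2 on chromosome 7 from 80094845 to 80118608 and Idh3a on chromosome 9 from 54586511 to 54604662. Ogdh lies on chromosome 11 from 6291597 to 6359094 and Dlst on chromosome 12 from 85110822 to 85134091. All are protein-coding genes whose reads were counted per gene, so no exon or transcript can be told apart. In the GENCODE annotation, Fh1 overlaps Kmo and Mdh1 overlaps Wdpcp on the opposite strand, while a snoRNA (U8) overlaps Cs and a miRNA gene (AL663049.1) overlaps Mdh1 on the same strand. Kmo had 8 to 87 reads and Wdpcp 3 to 53 reads per library, and whether the counting used strand is not given in the sources used here.

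Libraries held 11851853 to 16306540 reads on genes. The deposited values are reads over a size factor of the library, below given as normalized counts, and 1 read was worth 0.759 to 1.48 of them. A library had 56 to 4550 reads on an enzyme. Stim1 and Stim2, the deleted genes, were not called in either comparison of the genotypes. Stim1 had 1139 and 1377 normalized counts in unstimulated WT and 1538 and 1868 in unstimulated DKO libraries, and Stim2 had 906 and 908 against 904 and 744. Reads per gene cannot show the loss of single exons, so these counts do not check the genotype, and DKO is used as labelled. Foxp3, the Treg cell transcription factor, had 10001 and 8159 normalized counts in unstimulated WT and 4947 and 4258 in unstimulated DKO libraries, without overlap (log2 fold change -0.98, adjusted p = 0.0591). Of the 6 Treg cell markers, 6 had a log2 fold change below 0 in unstimulated DKO cells, with a median of -0.81, and 2 were called lower, Ctla4, an inhibitory receptor, at -1.79 (adjusted p = 0.0271) and Ikzf2, which encodes Helios, at -1.13 (adjusted p = 0.0142). Among all 15419 tested genes, 7763 were below 0 in unstimulated DKO cells and 3.35% were called lower. After stimulation 6 of the 6 markers were below 0 and 0 called in DKO against WT cells, with a median of -0.48. Among all tested genes 7476 were then below 0 and 0.272% were called in either direction.

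The unstimulated DKO libraries stood apart from the other 6 in myeloid markers. The summed level of 10 myeloid markers was 9998 normalized counts in DKO replicate 1 and 1651 in replicate 2, against 445 and 467 in the WT libraries and 165 to 443 in the stimulated ones. In unstimulated DKO cells all 10 were detected, while C1qa and C1qc were at 0 in both unstimulated WT libraries. The 5 B cell markers summed to 2043 and 450 normalized counts in DKO against 152 and 185 in WT libraries. Stimulated libraries held 106 to 972 of these B cell counts, and stimulated WT replicate 1 with 682 and DKO replicate 1 with 972 were above unstimulated DKO replicate 2. The 4 neutrophil markers summed to 699 and 327 against 132 and 91.6, with Ly6g at 0 in both WT libraries. The 4 markers of CD8 T and NK cells summed to 759 and 266 normalized counts against 299 and 248, and the 5 erythroid markers to 216 and 85.5 against 32.4 and 68.0. In the stimulated libraries these sums were 130.02 to 620 for neutrophils, 202 to 802 for CD8 T and NK cells and 84.2 to 181 for erythroid cells, so they overlapped those of unstimulated DKO cells. The 12 proliferation genes were lower, with sums of 11946 and 6428 in DKO and 42041 and 33603 in WT libraries. After stimulation these sums were 17809 and 9450 in DKO and 31655 and 29968 in WT libraries. Their part in the results below was not tested, and values without DKO replicate 1 are given where they bear on a call. In bulk RNA, fewer cells of a type and less RNA per cell cannot be told apart.

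**Figure D1:**
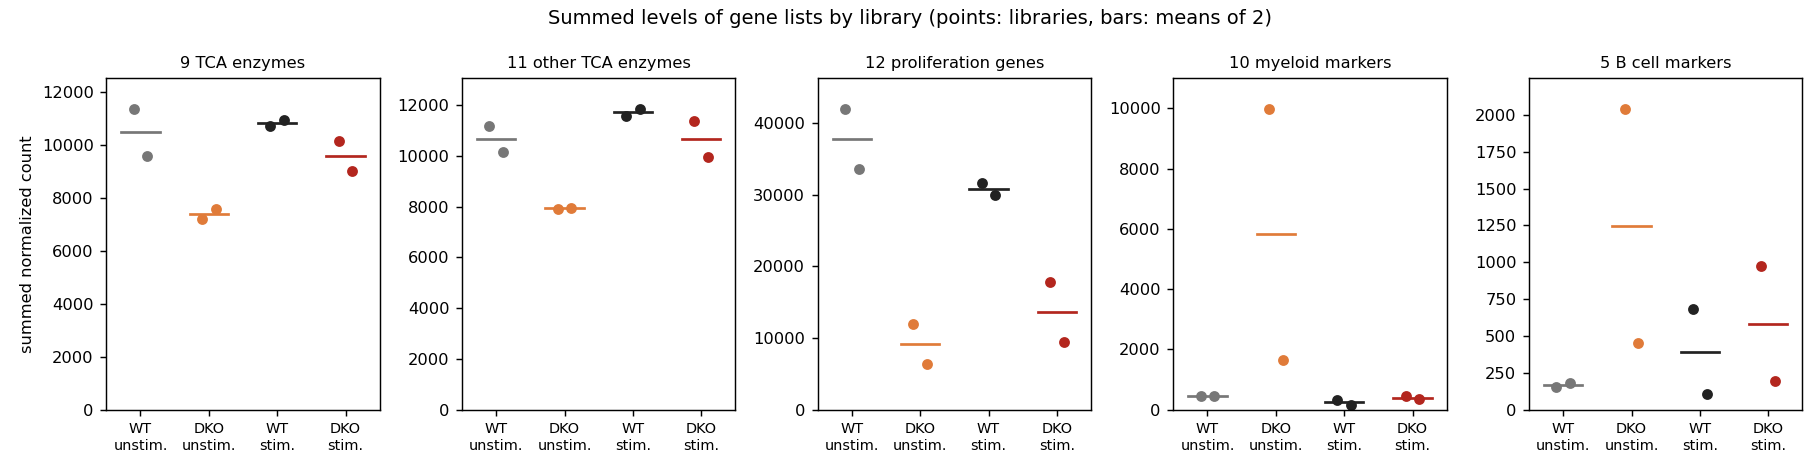
Summed normalized counts of 5 gene lists (y axis) in the 4 groups (x axis), with points for libraries and bars for the mean of 2. The 9 TCA enzymes sum to 7216 and 7595 in unstimulated DKO libraries and to at least 9023 in the other 6, and the myeloid sum reaches 9998 in 1 unstimulated DKO library.

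Levels per kilobase of exon differed widely between the enzymes. In unstimulated WT cells Cs had 996 ± 141 normalized counts per kb (SD, n = 2) and Mdh1 841 ± 65.0, followed by Mdh2 with 638 ± 80.7 and Dlst with 578 ± 80.8. Ogdh had 241 ± 34.8, Idh3a 226 ± 9.56 and Fh1 143 ± 23.3 normalized counts per kb. Idh2 with 46.2 ± 7.21 and Idh1 with 33.4 ± 1.01 were the lowest of the 9. Neighbours in this order whose means differed by less than the SD of one of them were Mdh2 and Dlst, and Ogdh and Idh3a. Idh1 and Idh2, the NADP-dependent isocitrate dehydrogenases of cytosol and mitochondria, were thus each below Idh3a, the catalytic subunit of the NAD-dependent enzyme of the cycle, on this scale.

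**Figure D2:**
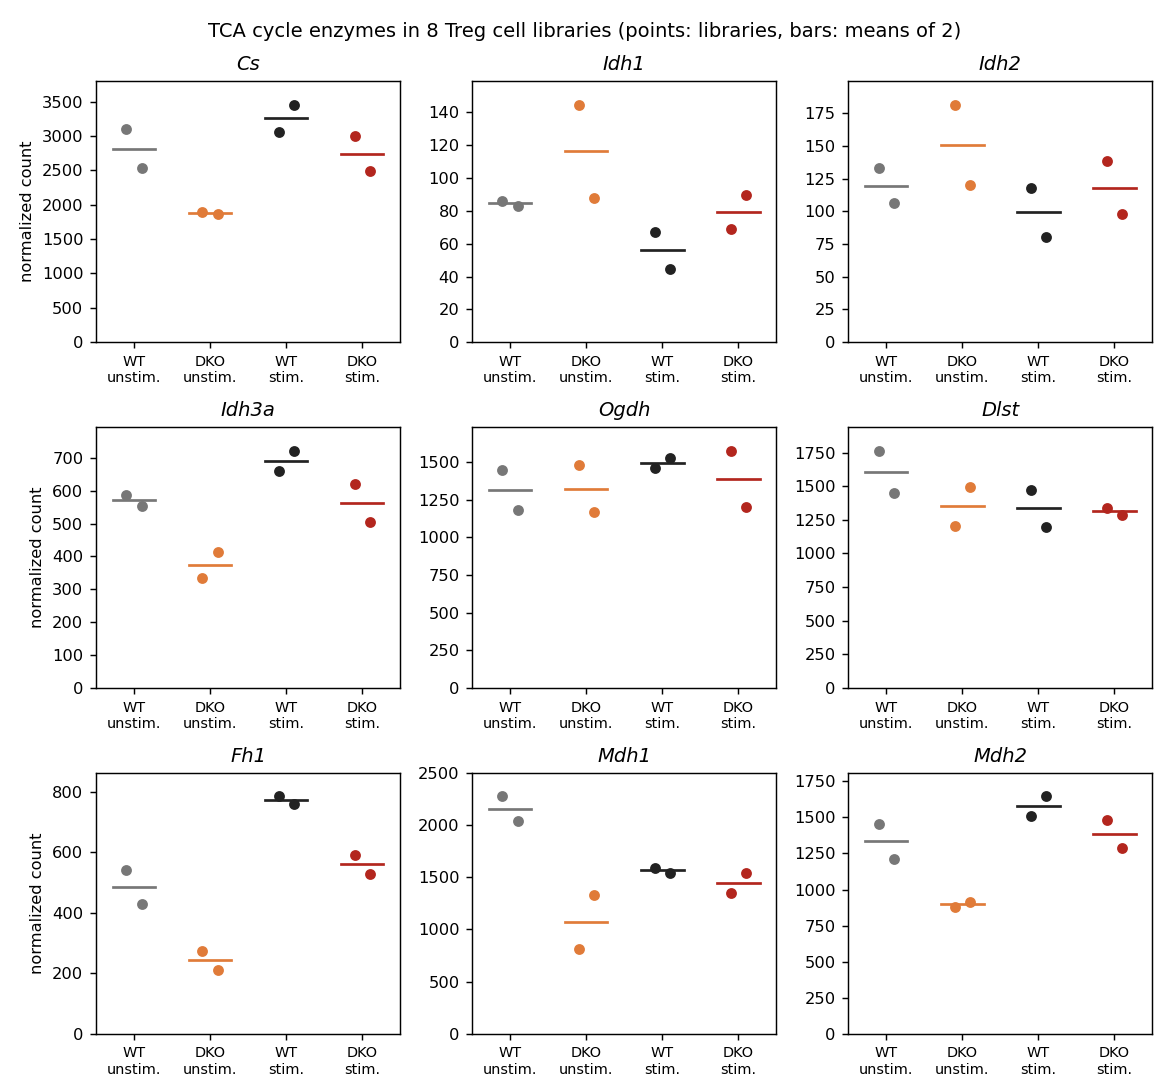
Normalized counts (y axis, starting at 0) of each of the 9 enzymes in the 4 groups (x axis), with points for libraries and bars for the mean of 2. Unstimulated DKO libraries are the lowest pair for Cs, Idh3a, Fh1, Mdh1 and Mdh2, and Ogdh differs little between groups.

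The first question was whether the enzymes differ between unstimulated WT and DKO Treg cells. Fh1 and Mdh1 fell in DKO cells, by 1.99 and 2.07 times, and Cs, Idh3a and Mdh2 were lower in both DKO libraries without passing the test. Idh1, Idh2, Ogdh and Dlst did not pass it either. In limma with Benjamini-Hochberg adjustment over 15419 genes, 2 of 9 enzymes were called lower and 0 higher. A call needed a change of more than 1.5-fold with an adjusted p under 0.05. Of all tested genes, 3.35% were called lower and 1.38% higher. Both DKO libraries lay below both WT libraries for 5 enzymes, as for 27.1% of all genes, and above for 1 enzyme, Idh1, as for 26.5% of all genes. The median log2 fold change of the 9 enzymes was -0.56, beside -0.0057 for all tested genes.

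Fh1 encodes fumarase, which hydrates fumarate to malate. In unstimulated WT libraries it had 542 and 430 normalized counts, and in DKO libraries 275 and 212. Both DKO libraries were below both WT libraries. This is a 1.99-fold lower level, or -0.996 on the log2 scale with a standard error (SE) of 0.23 (adjusted p = 0.0395). Without DKO replicate 1 it was -1.18 (adjusted p = 0.0242) and without DKO replicate 2 it was -0.81 (adjusted p = 0.0617). The call was also lost without unstimulated WT replicate 3 (adjusted p = 0.385) or 4 (adjusted p = 0.11) and without stimulated WT replicate 1 (adjusted p = 0.0845) or 2 (adjusted p = 0.0852), and the level stayed lower in each case. With edgeR on the reads the adjusted p was 0.0538 and with DESeq2 0.00852, and the call was lost without a filter on low values (adjusted p = 0.066), with equal totals (adjusted p = 0.0687) and in a fit to the 4 libraries (adjusted p = 0.102). The reads of Kmo, on the opposite strand, were 8 and 8 in WT and 87 and 20 in DKO libraries.

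Mdh1 encodes the cytosolic malate dehydrogenase of the malate-aspartate shuttle, which carries reducing equivalents into mitochondria. It had 2276 and 2040 normalized counts in WT libraries and 817 and 1326 in DKO libraries. The groups did not overlap, and DKO replicate 1 was the lower of the pair. The log2 fold change was -1.05 (SE 0.23, adjusted p = 0.0353), or 2.07-fold lower. Without DKO replicate 1, the library with the highest myeloid sum, the change was -0.70 and no longer called (adjusted p = 0.0528). Nor was it called without unstimulated WT replicate 3 (adjusted p = 0.342) or 4 (adjusted p = 0.128) or stimulated WT replicate 1 (adjusted p = 0.0792) or 2 (adjusted p = 0.0806). It was lost as well without a filter on low values (adjusted p = 0.066), with equal upper quartiles (adjusted p = 0.0584) and in a fit to the 4 libraries (adjusted p = 0.0962). The reads of Wdpcp, on the opposite strand, were 17 and 19 in WT and 26 and 3 in DKO libraries.

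Mdh2 encodes the mitochondrial malate dehydrogenase that closes the cycle. Its normalized counts were 1453 and 1214 in WT and 881 and 915 in DKO libraries, and the groups did not overlap. The log2 fold change was -0.56 (SE 0.19, adjusted p = 0.111), short of the threshold.

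Cs encodes citrate synthase, the entry step of the cycle. It had 3098 and 2533 normalized counts in WT and 1894 and 1862 in DKO libraries, again without overlap. The log2 fold change was -0.58 (SE 0.18, adjusted p = 0.104). For Idh3a the WT libraries had 588 and 554 and the DKO libraries 336 and 413 normalized counts. Here too both DKO libraries were the lower ones, with a log2 fold change of -0.62 (SE 0.22, adjusted p = 0.131).

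Ogdh and Dlst encode the E1 and E2 subunits of the 2-oxoglutarate dehydrogenase complex, which makes succinyl-CoA. Ogdh had 1450 and 1182 normalized counts in WT and 1481 and 1166 in DKO libraries, with overlapping groups. The log2 fold change was 0.0052 (SE 0.21, adjusted p = 0.992). Dlst had 1766 and 1448 against 1208 and 1493 normalized counts, which overlap. Its log2 fold change was -0.25 (SE 0.20, adjusted p = 0.509).

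Idh1 and Idh2 make 2-oxoglutarate and NADPH. Idh1 had 86.3 and 82.7 normalized counts in WT and 145 and 88.2 in DKO libraries. Both DKO libraries were above, the second by little, and the log2 fold change was 0.41 (SE 0.39, adjusted p = 0.576). Idh2 had 133 and 106 against 181 and 120 normalized counts, with overlap. Its log2 fold change was 0.31 (SE 0.36, adjusted p = 0.661). For both genes the higher DKO library was replicate 1, which had the highest myeloid sum. A part of myeloid RNA in these values was not tested. In stimulated DKO libraries the myeloid sums were 443 and 361. There Idh2 was also higher in replicate 1, with 138 against 97.9, and Idh1 in replicate 2, with 89.5 against 69.1.

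Of the 11 other TCA cycle enzymes measured, 11 had a log2 fold change below 0 in unstimulated DKO cells, and 1 was called lower and 0 higher. Among all 15419 tested genes, 7763 were below 0, 3.35% were called lower and 1.38% higher. The median of the 11 enzymes was -0.40. For 9 of the 11 both DKO libraries had less than either WT library, beside 27.1% of all genes. The called gene was Sdhd, a membrane anchor of succinate dehydrogenase, which had 1361 and 1086 normalized counts in WT and 515 and 693 in DKO libraries. The groups were apart, and the log2 fold change was -1.02 (SE 0.22, adjusted p = 0.0305). It was at -1.24 to -0.81 with each library left out and stayed called in 3 of 8 such fits, the call being lost without any 1 of the WT libraries or unstimulated DKO replicate 1, with adjusted p up to 0.342. Of 7 other alternatives 5 kept it, and it was lost without a filter on low values and in a fit to the 4 libraries, with adjusted p up to 0.0842. Sdhb, the iron-sulfur subunit, was at -0.72 (adjusted p = 0.15) and Sdhc, the other anchor, at -0.67 (adjusted p = 0.148), while Sdha, the catalytic subunit, was at -0.36 (adjusted p = 0.269). Suclg2, a subunit of succinyl-CoA synthetase, was nearest to 0 at -0.038.

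**Figure D3:**
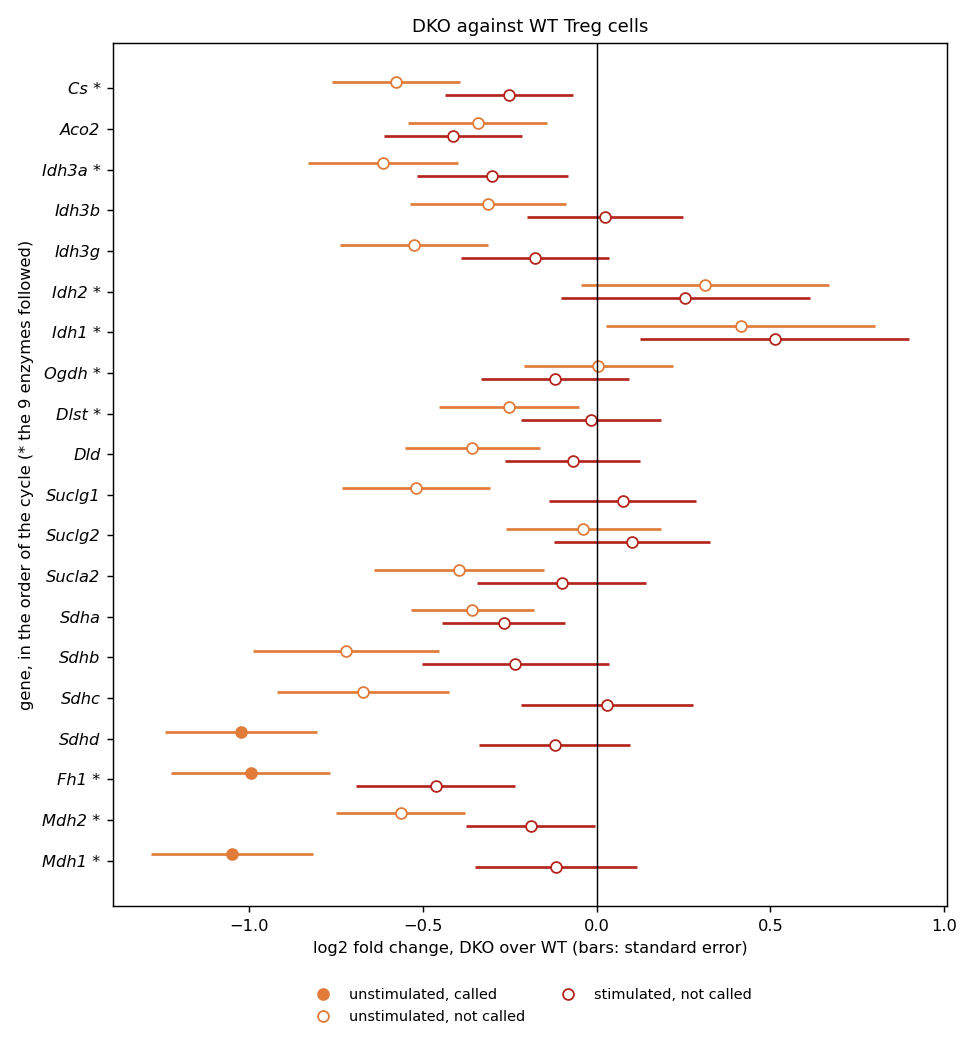
Log2 fold change of DKO over WT (x axis, bars are SEs of the limma fit, 2 libraries against 2) for 20 TCA cycle enzymes (y axis, stars mark the 9 enzymes). Filled points, those called, are Sdhd, Fh1 and Mdh1 in unstimulated cells, and no point of stimulated cells is filled.

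Genes that feed or drain the cycle were described alongside. Of 4 genes of the pyruvate dehydrogenase complex, which supplies acetyl-CoA, 0 were called in either direction in unstimulated cells, with a median of -0.26. The 5 genes of the malate-aspartate shuttle other than the malate dehydrogenases had a median of -0.73 with 0 called. Of these, Got1, the cytosolic aspartate aminotransferase, was at -1.30 (SE 0.51, adjusted p = 0.169). It had 3408 and 3368 normalized counts in WT and 660 and 2858 in DKO libraries, with the lowest value in DKO replicate 1. Slc25a13, a mitochondrial aspartate-glutamate carrier, was at -1.25 (adjusted p = 0.155). Of the 7 genes tested among 8 of citrate export and anaplerosis, 0 were called and the median was -0.029, with Glud1, glutamate dehydrogenase, at -0.63 (adjusted p = 0.0583). Of 8 genes of mitochondrial content, import and DNA, 0 were called and the median was -0.30. The proliferation genes were called lower for 10 of 12, beside 3.35% of all genes.

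The second question was whether the genotypes differ after 16 h of stimulation. No enzyme passed the test, and Fh1 had the lowest fold change of the 9. In limma 0 of 9 enzymes were called and 0 had an unadjusted p under 0.05, and edgeR and DESeq2 on the reads called 0 of 9 each. Of all tested genes 0.272% were called in either direction. Both DKO libraries lay below both WT libraries for 4 enzymes, as for 23.1% of all genes, and above for 1, as for 24.3% of all genes. The median log2 fold change was -0.12, beside 0.016 for all tested genes.

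Fh1 had 786 and 759 normalized counts in stimulated WT and 593 and 529 in stimulated DKO libraries. Both DKO libraries were lower, and the log2 fold change was -0.46 (SE 0.23, adjusted p = 0.411). Mdh1 had 1591 and 1540 against 1348 and 1545 normalized counts, and the groups overlapped. The log2 fold change was -0.12 (adjusted p = 0.879). Cs had 3065 and 3455 against 3005 and 2485 normalized counts, Idh3a 659 and 722 against 622 and 505, and Mdh2 1513 and 1646 against 1486 and 1287. All of these groups were apart by less than the spread within one of them, with log2 fold changes of -0.25, -0.30 and -0.19. Ogdh had 1460 and 1528 against 1576 and 1199 normalized counts, and Dlst 1473 and 1198 against 1340 and 1286, both with overlap. Idh1 had 67.0 and 44.8 against 69.1 and 89.5 normalized counts, which gave the highest log2 fold change of the 9, 0.51 (SE 0.39, adjusted p = 0.619). Idh2 had 118 and 80.5 against 138 and 97.9 normalized counts. Of the 11 other TCA cycle enzymes, 0 were called, beside 0.272% of all genes, with a median of -0.10.

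The third question was how stimulation changed the enzymes within each genotype, where stimulation also means another sequencing lane. The 2 contrasts of unstimulated DKO cells, against WT and against stimulated DKO cells, share those 2 libraries. In WT cells 0 of 9 enzymes were called by limma, 1 had an unadjusted p under 0.05, and edgeR and DESeq2 on the reads called 0 each. Of all tested genes 23.3% were called, 10.2% higher and 13.1% lower. In DKO cells 2 of 9 enzymes, Fh1 and Mdh2, were called higher and 0 lower, beside 13.0% of all genes called higher and 12.0% lower. In WT cells both stimulated libraries were above for 4 enzymes, as for 35.0% of all genes, and below for 2, as for 36.0%. In DKO cells both were above for 5 enzymes, as for 30.8% of all genes, and below for 0, as for 30.6%. The median log2 fold change of the 9 was 0.19 in WT and 0.47 in DKO cells, beside 0.0051 and -0.033 for all tested genes.

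Fh1 rose in DKO cells from 275 and 212 to 593 and 529 normalized counts, without overlap. The log2 fold change was 1.21 (SE 0.23, adjusted p = 0.00502), or 2.31-fold. In WT cells it went from 542 and 430 to 786 and 759 normalized counts, at 0.68 (SE 0.23), just short of the threshold (adjusted p = 0.0559). The DKO call was kept with each of the 8 libraries left out, with adjusted p up to 0.0302, and the WT change was called without unstimulated DKO replicate 1 (adjusted p = 0.0253) or 2 (adjusted p = 0.0248). The difference between the changes was 0.53 (SE 0.32, adjusted p = 0.673).

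Mdh2 rose in DKO cells from 881 and 915 to 1486 and 1287 normalized counts, a log2 fold change of 0.62 (SE 0.19, adjusted p = 0.0335), or 1.54-fold. The call was lost without stimulated DKO replicate 1 (adjusted p = 0.148) or 2 (adjusted p = 0.0591), and without any 1 of the WT libraries, where the adjusted p was 0.0557 to 0.0665. It was also lost without a filter on low values (adjusted p = 0.0577), with equal upper quartiles (adjusted p = 0.0788) and in a fit to the 4 libraries (adjusted p = 0.134). A replicate block, described at the end, lost the call as well. In WT cells Mdh2 went from 1453 and 1214 to 1513 and 1646 normalized counts, at 0.25 (adjusted p = 0.356). Cs and Idh3a were close to the threshold in DKO cells without passing it, at 0.54 (adjusted p = 0.0553) and 0.59 (adjusted p = 0.0711), and in WT cells at 0.22 and 0.27. Without unstimulated DKO replicate 2 Idh3a was called in DKO cells (adjusted p = 0.0478).

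With the deposited scaling Mdh1 took opposite directions, whereas with libraries rescaled to equal totals its value was 0.059 in WT cells and 0.86 in DKO cells. In WT cells it went from 2276 and 2040 normalized counts down to 1591 and 1540, and in DKO cells from 817 and 1326 up to 1348 and 1545. In both genotypes the stimulated and unstimulated libraries did not overlap, in DKO cells only narrowly, with 1348 against 1326. The log2 fold changes were -0.46 (SE 0.23, adjusted p = 0.177) and 0.47 (SE 0.23, adjusted p = 0.163), so neither passed the test. Without unstimulated DKO replicate 2 the DKO change was 0.82 and called (adjusted p = 0.0131). The difference between the changes was 0.93 (SE 0.33, unadjusted p = 0.0176, adjusted p = 0.569). Without DKO replicate 2 of the unstimulated cells it was 1.28 and called (adjusted p = 0.0348), and without DKO replicate 1 it was 0.58 (adjusted p = 0.467).

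The interaction term was tested for all genes. Limma called 0 of 9 enzymes and 0 of 15419 genes. At an unadjusted p under 0.05 there were 1 enzyme, Mdh1, and 8.15% of all genes. edgeR on the reads called 0 genes and DESeq2 47, with 0 enzymes in each. The median interaction of the 9 enzymes was 0.32, beside 0.052 for all genes.

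Ogdh had log2 fold changes of 0.19 in WT and 0.065 in DKO cells on stimulation, and Dlst -0.27 and -0.033. Idh1 was at -0.62 (SE 0.39) in WT and -0.52 in DKO cells, and Idh2 at -0.29 and -0.34, none called. Idh1 had the lowest log2 fold change of the 9 on stimulation in both genotypes.

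Among the 11 other TCA cycle enzymes, 1 was called higher in stimulated WT cells and 4 in stimulated DKO cells, with 0 called lower in either. Of all tested genes 10.2% were called higher in WT and 13.0% in DKO cells. Both stimulated libraries lay above for 7 of the 11 in WT and 8 in DKO cells, beside 35.0% and 30.8% of all genes. For the interaction 0 of the 11 and 0 of all tested genes were called. Suclg1, the subunit of succinyl-CoA synthetase common to its forms, rose in both, from 282 and 269 to 495 and 495 normalized counts in WT (log2 fold change 0.84, SE 0.21, adjusted p = 0.018) and from 191 and 192 to 511 and 532 in DKO cells (1.44, adjusted p = 0.00162). Sdhb, Sdhc and Sdhd rose in DKO cells by 1.18, 1.40 and 1.07 (adjusted p = 0.011, 0.00377 and 0.00677). In WT cells they were at 0.70, 0.70 and 0.17. Of the 8 fits that left out a library, 8 kept the DKO call of Suclg1, Sdhc and Sdhd and 7 that of Sdhb, and 4 kept the WT call of Suclg1. The call of Sdhb was lost without stimulated DKO replicate 1 (adjusted p = 0.0699) and the WT call of Suclg1 without any 1 of the WT libraries, with adjusted p up to 0.117. The median of the 11 was 0.20 in WT and 0.50 in DKO cells.

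**Figure D4:**
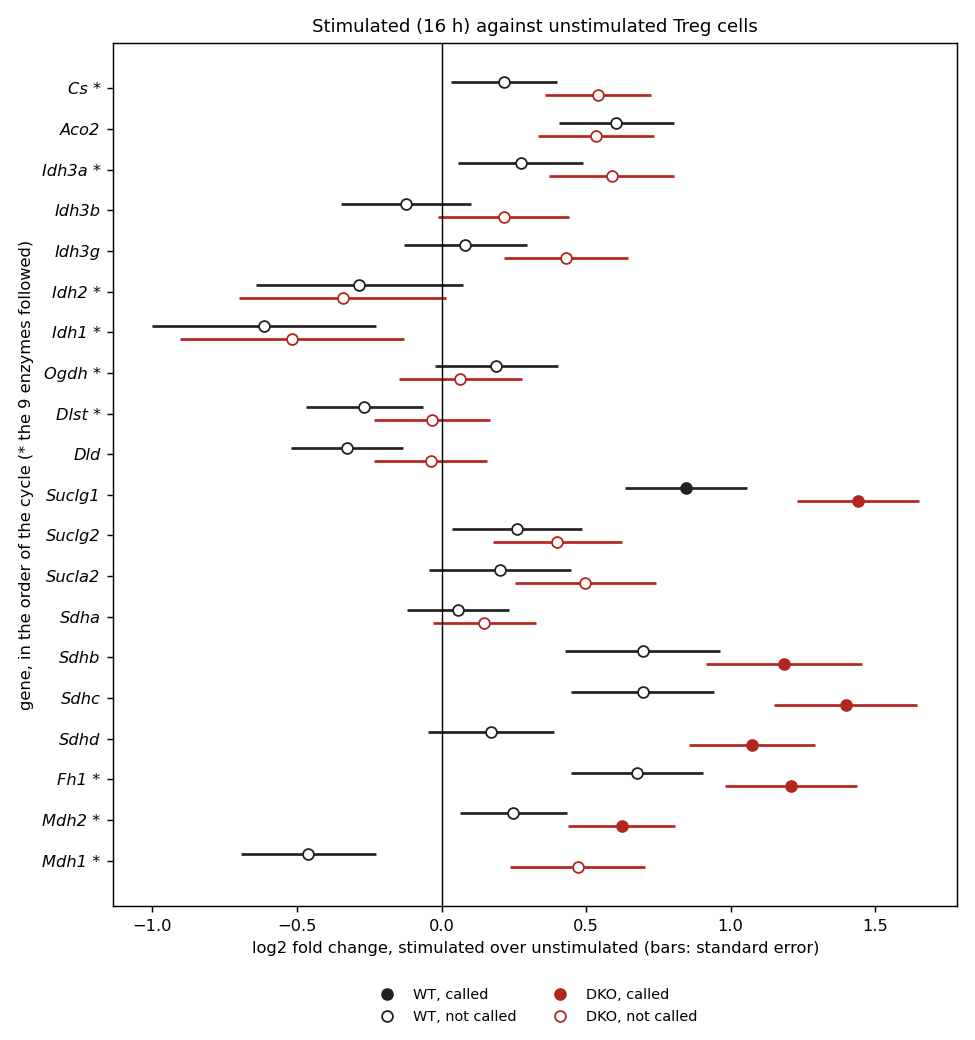
Log2 fold change of stimulated over unstimulated cells (x axis, bars are SEs of the limma fit, 2 libraries against 2) for 20 TCA cycle enzymes (y axis, stars mark the 9 enzymes) in WT and DKO cells. Filled points, those called, are Suclg1 in WT cells and Suclg1, Sdhb, Sdhc, Sdhd, Fh1 and Mdh2 in DKO cells, and Mdh1 lies on opposite sides of 0 with the deposited scaling but not with equal totals.

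Around the cycle, Dlat, the acetyltransferase of the pyruvate dehydrogenase complex, rose in both genotypes, by 1.11 in WT (adjusted p = 0.0122) and 1.09 in DKO cells (adjusted p = 0.0119). Of the 4 genes of this complex, 2 had a log2 fold change above 0 and 2 below it in each genotype. Slc25a1, which exports citrate from mitochondria, rose by 1.48 (adjusted p = 0.0156) and 1.63 (adjusted p = 0.00962), and Aco1, the cytosolic aconitase, by 0.77 (adjusted p = 0.041) and 0.76 (adjusted p = 0.0409). With the deposited scaling Glud1 fell by 0.62 in WT cells (adjusted p = 0.0226) and was at -0.30 in DKO cells. Got2, the mitochondrial aspartate aminotransferase, rose by 0.84 in DKO cells (adjusted p = 0.0295) and was at 0.37 in WT cells. In WT cells 0 of the 5 shuttle genes were called. The lowest was Got1 at -1.45, from 3408 and 3368 to 1261 and 1225 normalized counts. The highest was Slc25a13 at 1.08, from 79.9 and 151 to 235 and 230. In DKO cells Got1 went from 660 and 2858 to 1282 and 913 normalized counts. Of the 8 genes of mitochondrial content 3 were called higher in each genotype and 0 lower, beside 10.2% of all genes called higher in WT and 13.0% in DKO cells. The genes of this paragraph are given with the deposited scaling and all libraries only. With equal totals the median of all genes was 0.52 in WT and 0.35 in DKO cells, against 0.0051 and -0.033. The size of these rises and of the falls of Glud1 and Got1 thus depends on the scaling.

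Scaling weighed on the stimulation contrasts more than on genotype. With equal totals the median of all genes shifted to 0.52 in WT and 0.35 in DKO cells, and 5 of 9 enzymes were called higher in each. The calls over all genes were then 974 lower and 4258 higher in WT cells, against 2013 and 1580 with the deposited scaling, and 1077 and 3791 against 1855 and 1997 in DKO cells. Fh1 was then at 1.197 in WT cells and at 1.60 in DKO cells, further from 0 than the median of all genes. For genotype in unstimulated cells the split was 353 lower and 241 higher with equal totals, against 517 and 213.

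Ratios within a library do not depend on scaling, and are given without a test. The pairs were not picked by a stated rule, and the share of other gene pairs with such differences was not computed. The reads of Mdh1 over those of Mdh2 were 1.57 and 1.68 in unstimulated WT libraries and 0.927 and 1.45 in DKO libraries. After stimulation the ratio was 1.05 and 0.935 in WT and 0.908 and 1.2 in DKO libraries. Unstimulated WT cells were the pair with the highest ratio, and the other 3 groups overlapped. The ratio of Fh1 to Ogdh was 0.374 and 0.364 in unstimulated WT, 0.186 and 0.182 in unstimulated DKO, 0.538 and 0.497 in stimulated WT and 0.376 and 0.441 in stimulated DKO libraries. It was lowest in both unstimulated DKO libraries. The highest value over the lowest was 3.70 for Fh1 and 1.35 for Ogdh, the widest and the narrowest range of the enzymes described here. The ratio of Fh1 to Ogdh thus mostly repeats the values of Fh1 given above. The part of other cell types in this ratio was not tested. The ratio of Cs to Ogdh was 1.28 and 1.60 in unstimulated DKO libraries and 1.91 to 2.26 in the other 6. The ratio of Idh1 to Idh3a was 0.431 and 0.214 in unstimulated DKO libraries and at most 0.177 elsewhere.

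**Figure D5:**
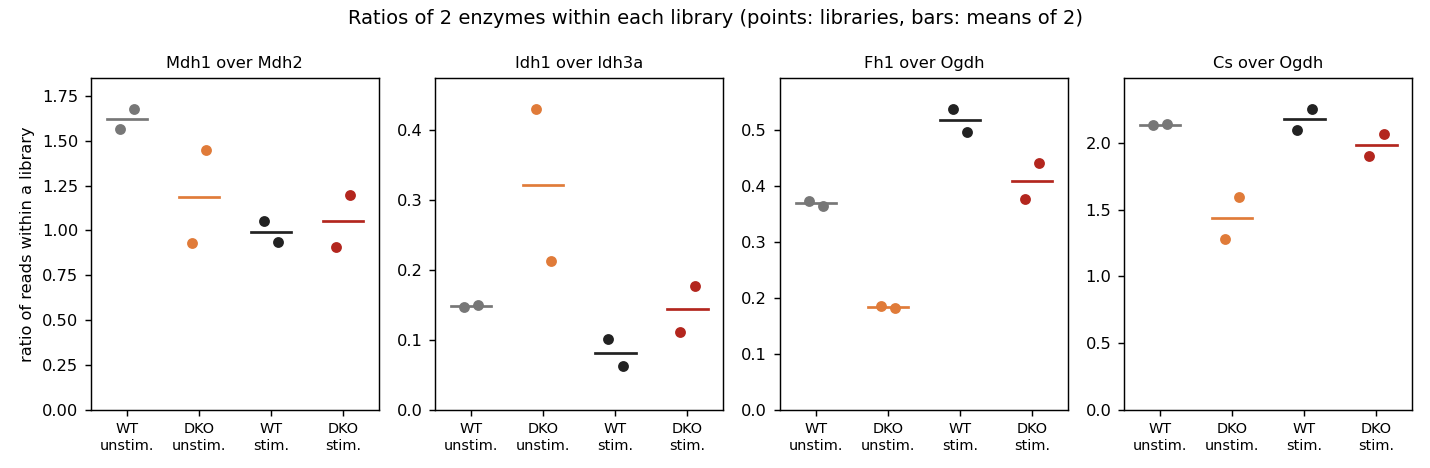
Ratio of the reads of one enzyme to those of another within a library (y axis) in the 4 groups (x axis), with points for libraries and bars for the mean of 2. Fh1 over Ogdh is 0.186 and 0.182 in unstimulated DKO libraries and at least 0.364 elsewhere.

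The levels of each enzyme could be ordered over the 4 groups. For Cs, Idh3a, Fh1 and Mdh2 the lowest mean was that of unstimulated DKO cells and the highest that of stimulated WT cells. Unstimulated DKO cells did not overlap the next group for any of these 4 enzymes. Unstimulated WT and stimulated DKO cells were neighbours in this order for all 4 and overlapped. How many of all tested genes share this order or these gaps was not computed, so it is not a trait particular to the enzymes. For Mdh1 the lowest group was unstimulated DKO and the highest unstimulated WT cells, and the stimulated groups between them overlapped. For Ogdh and Dlst all neighbouring groups overlapped, and likewise for Idh2. Idh1 had its lowest mean in stimulated WT cells and its highest in unstimulated DKO cells, each apart from its neighbour. The highest value of an enzyme over its lowest was 3.70 for Fh1, 3.23 for Idh1, 2.79 for Mdh1, 2.25 for Idh2, 2.15 for Idh3a, 1.87 for Mdh2, 1.86 for Cs, 1.47 for Dlst and 1.35 for Ogdh.

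The mean profile of the 9 enzymes over the 8 libraries, each centred on its own mean log2 value, was closest to those of Naa35, Afg3l2, Mtpn, Eif4b and C1d. The measure was the root mean square difference in log2, which was 0.0559 for Naa35 and 0.08 for C1d. Naa35 encodes an auxiliary subunit of an N-terminal acetyltransferase and Afg3l2 a subunit of a protease of the inner mitochondrial membrane. Naa35 had 523 and 474 normalized counts in unstimulated WT, 405 and 407 in unstimulated DKO, 566 and 474 in stimulated WT and 523 and 467 in stimulated DKO libraries. Among the enzymes themselves, Ogdh at 0.168, Cs at 0.172 and Mdh2 at 0.18 were nearest to the mean profile, and Idh1 at 0.55 was the farthest. The measure is of distance rather than shared direction, so a gene that changes little can lie near this shallow mean profile. Ogdh had a log2 fold change of 0.0052 between genotypes in unstimulated cells, beside a median of -0.56 for the 9 enzymes.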

How the data were processed

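RNA sequencing of Treg cells was analysed in 8 libraries, 2 for each of 4 groups taken from the labels. In the deposited table each signal value is the number of reads on a gene over a size factor of its library, rounded by the authors to 2 decimals. Dividing by the value of 1 read gave whole reads for 100% of the values above 0, to within 0.05 of a read. The study's methods name Bowtie, NCBIM37, Picard, HTSeq and DESeq2, whereas the submitters' processing notes list bcl2fastq 1.8.4, STAR 2.7, DESeq2 and mm10. Which of them made the table is not known, and the kits named in the labels and the methods also differ in whether they mark strand. Symbols were matched to RefSeq tables of GRCm38.p6 for positions and promoter sequences, and to GENCODE vM1 for exon lengths and overlapping genes.

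The main test was limma 3.58.1 (lmFit and trended eBayes, R 4.3.3) on log2(value + 1). It covered the 15419 genes with a mean of at least 10, in 1 model of 4 groups with 5 contrasts. Tests were 2-sided with Benjamini-Hochberg adjustment within each contrast, and a call needed a change of more than 1.5-fold with an adjusted p under 0.05. Fold changes are on the log2(value + 1) scale. Alternatives were a pseudocount of 5, no filter, equal totals, equal upper quartiles, DESeq2 1.42.0 and the quasi-likelihood test of edgeR 4.0.16 on reads, a fit to the 4 libraries of a contrast, a replicate block, adjusted p alone and each library left out. The scripts were tested on simulated data. The members and lists were chosen with earlier results of these data known. Besides the 9 enzymes, named genes are the other TCA cycle enzymes, from each other list up to 4 called genes with the largest change in a contrast or, where none was called, 2, the 5 nearest profiles, Stim1, Stim2 and the cell type markers.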

Additional observations from a re-analysis of the deposited data

Results flagged for a closer look

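Mdh1 is listed because stimulation moved both libraries of WT cells one way and both libraries of DKO cells the other way. Stimulated WT libraries had 1591 and 1540 normalized counts against 2276 and 2040 before, and stimulated DKO libraries 1348 and 1545 against 817 and 1326. The DKO groups were apart only narrowly, by 1348 against 1326. Both stimulated libraries lay below for 36.0% of all genes in WT cells and above for 30.8% in DKO cells. The share of genes that meet both at the same time was not computed. The interaction was 0.93 on the log2 scale (standard error 0.33, limma unadjusted p = 0.0176, adjusted p = 0.569), so the difference did not pass the threshold over all genes. The directions were opposite with the deposited scaling, and with equal totals the change was 0.059 in WT and 0.86 in DKO cells. Over the alternatives that kept all libraries it was 0.80 to 0.95, with adjusted p of 0.494 to 0.67, and with each library left out it was 0.58 to 1.28, with adjusted p of 0.0348 to 0.999.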

How the results depend on the processing

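Both the counts of called genes and the fold changes depended on the processing. For genotype in unstimulated cells 2 enzymes were called, and 0 without a filter on low values, 1 with equal totals, 1 with equal upper quartiles, 1 with edgeR, 0 in a fit to the 4 libraries and 0 to 2 with a library left out. Over all genes 730 were called, and 362 without a filter, 484 with edgeR, 1321 with DESeq2, 338 in a fit to the 4 libraries and 8 to 1298 with a library left out, the lowest without WT replicate 3 and the highest without DKO replicate 2. For genotype in stimulated cells 42 genes were called, and 74 with a pseudocount of 5, 1 without a filter, 69 with equal upper quartiles, 1 with edgeR, 525 with DESeq2, 1 in a fit to the 4 libraries and 0 to 762 with a library left out, the lowest without WT replicate 1 or DKO replicate 2 and the highest without DKO replicate 1. The enzymes' median there was -0.29 to -0.087 with a library left out. For stimulation in WT cells 0 enzymes were called, and 5 with equal totals, 1 in a fit to the 4 libraries and 0 to 1 with a library left out. Their median rose from 0.19 to 0.71 with equal totals, and 971 to 4276 genes were called with a library left out, against 3593. For stimulation in DKO cells 2 enzymes were called, and 1 without a filter, 5 with equal totals, 1 with equal upper quartiles, 1 in a fit to the 4 libraries and 1 to 4 with a library left out, the highest without unstimulated DKO replicate 2. Their median of 0.47 was 0.86 with equal totals and 0.24 to 0.53 with a library left out, and 1752 genes were called in a fit to the 4 libraries, against 3852. For the interaction DESeq2 called 47 genes, and with a library left out 0 to 1 enzymes and 0 to 196 genes were called. The causes were not tested.

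Some directions reversed. With equal totals stimulation in WT cells gave 0.059 for Mdh1, against -0.46 with the deposited scaling, 0.23 for Idh2 and 0.25 for Dlst, stimulation in DKO cells 0.046 for Idh2 and 0.36 for Dlst, and the interaction of Idh1 was -0.029. With equal upper quartiles genotype in stimulated cells gave 0.049 for Dlst and stimulation in DKO cells -0.048 for Ogdh. With a library left out, Ogdh was at -0.17 to 0.18 for genotype in unstimulated cells, at -0.32 to 0.078 for genotype in stimulated cells, at -0.13 to 0.26 for stimulation in DKO cells and at -0.32 to 0.072 for the interaction. Dlst was at -0.17 to 0.13 for genotype in stimulated cells and at -0.19 to 0.12 for stimulation in DKO cells. Idh2 was at -0.017 to 0.53 for genotype in stimulated cells and at -0.35 to 0.24 for the interaction, and the interaction of Idh1 was -0.26 to 0.45.

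Replicate numbers are shared by 2 pairs of libraries in each of the contrasts of genotype in stimulated cells and of stimulation in DKO cells, and the labels do not say that a number marks a shared pool. Deviations from the group means correlated at 0.167 and 0.257 across genes, which with 2 pairs does not establish a pairing. With a replicate block 393 genes and 0 enzymes were called for genotype in stimulated cells, and 1 enzyme, Fh1, for stimulation in DKO cells, where Mdh2 was no longer called (0.62, adjusted p = 0.128). No paired analysis was possible for unstimulated cells because WT and DKO libraries share no number. With 2 libraries a group and 56 to 4550 reads on an enzyme in a library, the spread between libraries limits these comparisons, most of all for Idh1 and Idh2.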
